A study of Mus musculus with 6 samples.

Results

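Notch ligands and receptors were examined in endothelial cells of the embryonic mouse heart with both, 1 or none of the alleles of the ligand gene Dll4 floxed. The 8 genes Dll4, Dll1, Jag1, Jag2, Notch1, Notch2, Notch3 and Notch4 were taken by symbol from the 41214 genes of the expression table, and each matched 1 row. Of these 8 genes, 7 passed the filter on low counts and were tested, while Notch3 did not. Notch signalling works by contact: a ligand on 1 cell pulls on a receptor of its neighbour, the receptor is cut by a metalloprotease and then by gamma-secretase, and its freed intracellular part joins the DNA-binding protein Rbpj to switch on target genes such as Hes1 and Hey1. In endothelium, Dll4 is the main Delta-type ligand of arterial and sprouting cells and signals chiefly through Notch1, Notch4 is largely an endothelial receptor, and Notch3 is best known from mural cells. Loss of Dll4 is known in mouse to block arterial specification and to release sprouting and growth.

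Embryos of all 3 groups carried Pdgfb-iCreERT2-IRES-EGFP, a transgene in which the Pdgfb promoter drives tamoxifen-inducible Cre and green fluorescent protein in endothelial cells, and all were exposed to tamoxifen at E13.5 (E, embryonic day). The KO group (genotype Dll4-/- in the labels) came from Dll4 flox/flox transgenic mice crossed with Dll4 flox/flox females, the het group (Dll4+/-) from the same transgenic mice crossed with wildtype mice, and the wt group from transgenic mice with normal Dll4 crossed with wildtype females. Hearts were collected a day later, at E14.5, and dissociated cells that carried CD31 and were green fluorescent were sorted. Each group had 2 libraries, KO replicates 1 and 2, het replicates 2 and 3 and wt replicates 4 and 5. Litters of several females were used, but the labels do not say how many hearts went into a library, so the p-values measure the spread between these libraries.

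The KO libraries held 6501798 and 4988014 counts and the het and wt libraries 1537908 to 3165552, so every KO library was deeper than every other. The KO libraries stood apart in makeup: Lars2, which holds sequence resembling ribosomal RNA, took 0.0572% and 0.0611% of their counts, against 16.3% to 17.1% in the het and wt libraries. No preparation date is given, and in every KO comparison below genotype and any shared preparation of these libraries cannot be told apart. The 9 endothelial markers summed to 4716 and 4864 CPM in KO libraries, 5472 and 5655 CPM in het libraries and 5777 and 6227 CPM in wt libraries (CPM, counts relative to a library size adjusted by the TMM method), and none of them was at 0 in a group. In KO against wt 4 of these 9 were called lower and 2, Kdr and Tek, higher. Over all tested genes 17.3% were called lower and 14.7% higher. The lowest place of KO in these sums came from Cdh5, the gene of the endothelial adhesion protein VE-cadherin. Cdh5 was at 421 and 381 CPM in KO, 1808 and 1909.7 CPM in het and 1981 and 1928 CPM in wt libraries. The other 8 markers, a sum taken after these values were seen, came to 4443 and 4335 CPM in KO, 3664 and 3746 CPM in het and 4246 and 3848 CPM in wt libraries. In this sum both KO libraries were highest and both het libraries lowest. The 8 cardiomyocyte markers summed to 29.2 and 33.6 CPM in KO, 115 and 140.3 CPM in het and 57.0 and 63.4 CPM in wt libraries. In bulk RNA, fewer cells of a type and less RNA per cell cannot be told apart.

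Levels of different genes were compared only after division by the length of the longest annotated transcript. In wt endothelium Dll4 stood highest, at 50.6 ± 2.49 CPM per kb (SD, n = 2, as for all levels below), followed by Notch1 at 38.7 ± 5.63 and Notch4 at 38.1 ± 1.94 CPM per kb, whose libraries overlapped. Jag2, with 14.3 ± 0.413 CPM per kb, and Jag1, with 8.51 ± 1.04 CPM per kb, came next. Dll1 was at 1.64 ± 0.314, Notch2 at 0.284 ± 0.0602 and Notch3 at 0.159 ± 0.00165 CPM per kb. Normal cardiac endothelium at this stage thus held mostly 1 Delta ligand, both Jagged ligands and a pair of receptors, nearly equal by this length. In KO libraries the order ran Notch4, Jag2, Notch1, Jag1, Dll4, Dll1, Notch2 and Notch3, and in het libraries Notch4, Notch1, Dll4, Jag2, Jag1, Dll1, Notch2 and Notch3. Among neighbours in these orders, libraries overlapped only for Notch2 and Notch3 in KO, and for Notch4 and Notch1 and for Notch2 and Notch3 in het. With the length of all exons merged in place of the longest transcript, Notch4 moved ahead of Notch1 in wt and no other place changed. Notch4 was then at 31.1 and Notch1 at 25.8 CPM per kb in wt, and their wt libraries did not overlap.

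**Figure D1:**
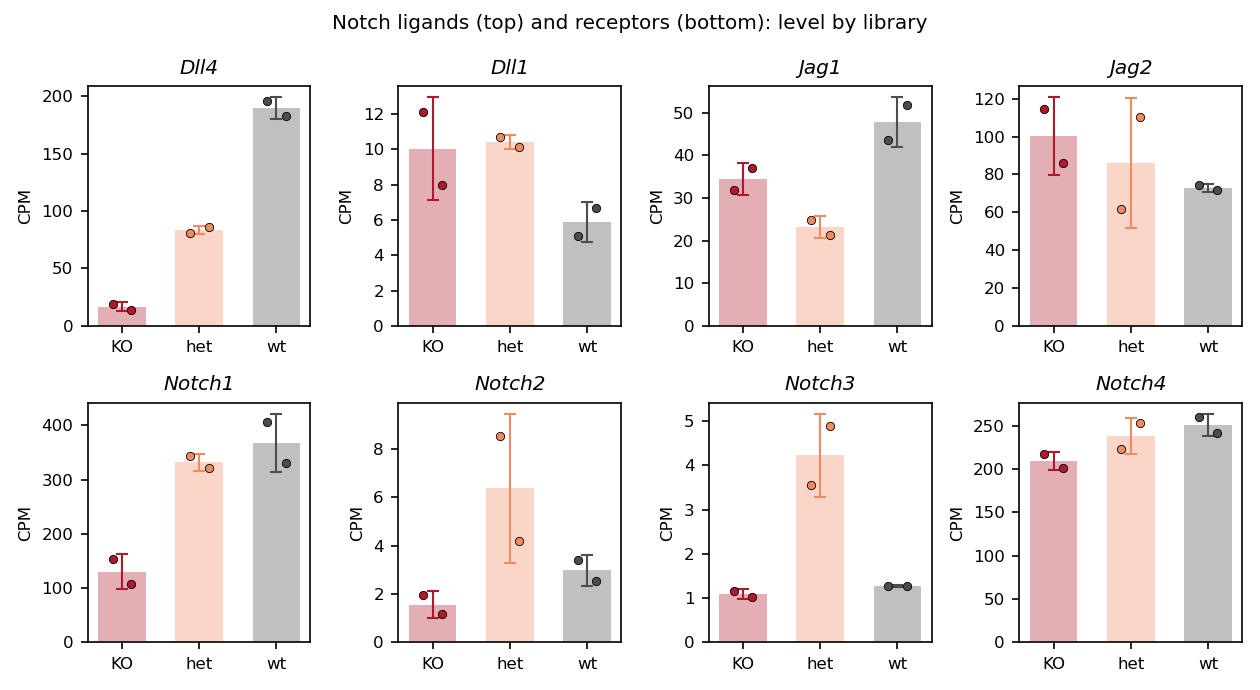
Level of each ligand (top row) and receptor (bottom row) in CPM, with 1 point per library, bars for the group mean and error bars for the SD (n = 2 per group). Dll4 is lowest in both KO libraries, Notch1 is low in both KO libraries but not in het libraries, and Jag1 is lowest in both het libraries.

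Promoter windows of the ligand and receptor genes were read from 250 bases before to 50 bases after the annotated start (RefSeq, GRCm38.p6). All 8 genes matched, with 9 windows because Dll1 has 2. Those of Dll4, Notch1 and Jag1, the genes on which the results turn, are printed 5′ to 3′ on the gene's strand, with GC boxes (GGGCGG or its reverse complement CCGCCC) in capitals. The Dll4 window (chr2:119325534-119325833, plus strand) held 2 GC boxes, the Notch1 window (chr2:26503773-26504072, minus strand) held 5 and the Jag1 window (chr2:137116471-137116770, minus strand) held none. Of the 32851 windows of all genes, 35.7% held at least 1 GC box. The core TGGGAA, recognised by Rbpj, and its reverse complement TTCCCA were in none of the 9 windows and in 25.6% of all windows, which says only that these letters are absent from these windows.
Dll4: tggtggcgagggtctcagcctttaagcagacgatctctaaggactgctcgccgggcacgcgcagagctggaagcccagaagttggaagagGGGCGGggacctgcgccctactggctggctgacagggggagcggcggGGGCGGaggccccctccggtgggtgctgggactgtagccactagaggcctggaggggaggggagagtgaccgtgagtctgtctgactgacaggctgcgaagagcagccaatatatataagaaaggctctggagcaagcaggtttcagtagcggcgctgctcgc
Notch1: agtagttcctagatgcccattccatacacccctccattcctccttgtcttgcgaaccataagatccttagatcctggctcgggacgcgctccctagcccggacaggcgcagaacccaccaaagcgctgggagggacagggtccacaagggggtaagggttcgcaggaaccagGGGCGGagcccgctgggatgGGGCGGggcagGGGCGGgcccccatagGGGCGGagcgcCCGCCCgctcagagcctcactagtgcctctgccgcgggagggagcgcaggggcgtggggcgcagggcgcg
Jag1: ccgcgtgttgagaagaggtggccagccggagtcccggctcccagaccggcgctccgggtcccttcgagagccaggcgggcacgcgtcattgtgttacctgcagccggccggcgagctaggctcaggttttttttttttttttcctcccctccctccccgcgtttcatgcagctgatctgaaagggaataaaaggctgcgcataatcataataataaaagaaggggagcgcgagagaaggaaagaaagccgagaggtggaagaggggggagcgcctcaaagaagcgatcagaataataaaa

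Among ligands, Dll4 followed the labelled genotype. Dll4 (ENSMUSG00000027314), on chromosome 2 from 119325784 to 119335962 (GRCm38), was at 19.4 and 13.7 CPM in KO libraries, 81.2 and 85.9 CPM in het libraries and 196 and 183 CPM in wt libraries. The 3 groups did not overlap. The group means were 8.73% of the wt mean in KO and 44.1% of it in het. Relative to wt, the log2 fold change of Dll4 was -3.50 ± 0.16 (SE) in KO (edgeR adjusted p = 2.01e-12) and -1.18 ± 0.15 in het (adjusted p = 7.35e-04). Relative to het, it fell by 2.32 ± 0.17 in KO (edgeR adjusted p = 1.76e-09). Leaving out wt replicate 4 ended the call in het (adjusted p = 0.0952). The table holds 1 value per gene, so the 149 and 81 Dll4 counts that remained in the KO libraries were not split into reads from undeleted exons and reads from cells that kept an allele. A predicted gene on the opposite strand overlaps Dll4 and held 9 and 19 counts in the KO libraries, and reads of the strands were not told apart.

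Jag1, a Jagged ligand that in mouse retina competes with Dll4 for Notch receptors on sprouting vessels, had a pattern of its own. Its level was 31.8 and 37.2 CPM in KO libraries, 24.9 and 21.3 CPM in het libraries and 43.7 and 51.9 CPM in wt libraries. Both het libraries lay below all 4 others, which held for 8.08% of all tested genes. Against wt, the het log2 fold change was -1.06 ± 0.23 and missed the threshold over all genes (unadjusted p = 1.39e-04, edgeR adjusted p = 0.0633), although it passed with no filter (adjusted p = 0.00296) and with a trend on exonic length removed (adjusted p = 0.0347). KO against wt gave -0.46 ± 0.19 (edgeR adjusted p = 0.0754), with a 95% interval from -0.87 to -0.06. Jag1 rose in KO against het, by 0.60 ± 0.21 on the log2 scale (edgeR adjusted p = 0.0385). That call was lost with DESeq2, limma-voom, thinning to equal total counts and the length trend removed, and without KO replicate 2, het replicate 2, het replicate 3 or wt replicate 5 (adjusted p between 0.0541 and 0.254).

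Jag2, the second Jagged ligand, was at 114.7 and 85.8 CPM in KO libraries, 61.96 and 110.3 CPM in het libraries and 74.5 and 71.5 CPM in wt libraries. Both KO libraries lay above both wt libraries, while the het libraries spanned nearly the whole range. No comparison of Jag2 passed over all genes. KO against wt gave a log2 fold change of 0.46 ± 0.25 (edgeR adjusted p = 0.207), with a 95% interval from -0.11 to 1.03. It passed at 0.82 with library size as the only scaling (adjusted p = 0.0235), and also with no filter (adjusted p = 0.00520), in a fit of KO and wt alone (adjusted p = 0.0275) and without het replicate 2 or het replicate 3 (adjusted p = 0.0270 and 0.0301). Dll1, a Delta ligand that maintains arterial identity in late fetal mouse vessels, was scarce, with 93 and 47 counts in the KO libraries, 15 and 29 in het and 11.9 and 10.5 in wt. In CPM this was 12.1 and 7.97 CPM in KO, 10.7 and 10.1 CPM in het and 5.07 and 6.66 CPM in wt, so the KO and het libraries lay above both wt libraries. The log2 fold changes of Dll1, 0.76 ± 0.42 for KO against wt and 0.80 ± 0.45 for het against wt, did not pass (edgeR adjusted p = 0.174 and 0.677). With library size as the only scaling, Dll1 in KO against wt was 1.12 and passed (adjusted p = 0.0317).

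Among receptors, Notch1 fell with loss of both alleles. Notch1 (ENSMUSG00000026923), on chromosome 2 from 26457903 to 26516663 (GRCm38), was at 153.3 and 107.6 CPM in KO libraries, 343 and 321 CPM in het libraries and 405 and 329.8 CPM in wt libraries. Both KO libraries lay below the other 4, and the het and wt libraries overlapped. Its log2 fold change in KO was -1.49 ± 0.16 against wt (edgeR adjusted p = 4.99e-05) and -1.34 ± 0.16 against het (adjusted p = 1.18e-04). For het against wt it was -0.15 ± 0.16 (edgeR adjusted p = 0.855), with a 95% interval from -0.51 to 0.21. Its expected counts were not whole in any library, and a pair of genes overlapping it on the opposite strand held at most 26.4 and 21.3 counts in a library.

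Notch4, whose product in mouse is concentrated in endothelium, stayed close to its wt level. It was at 217 and 202 CPM in KO libraries, 224 and 253 CPM in het libraries and 260 and 242 CPM in wt libraries. The KO libraries lay just below the wt libraries, and het overlapped wt. The log2 fold change of KO against wt was -0.26 ± 0.11 (edgeR adjusted p = 0.0651), with a 95% interval from -0.48 to -0.04. It passed in a fit of KO and wt alone (adjusted p = 0.0456), with thinning (0.0181), with the length trend removed (0.0382) and without het replicate 2 or het replicate 3 (0.0466 and 0.0481), and its sign turned to 0.10 with library size as the only scaling. In het against wt it was -0.07 ± 0.11 (edgeR adjusted p = 0.911).

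Notch2 and Notch3, receptors prominent in mural and other mesenchymal cells, were at the edge of detection. Notch2 had 15 and 7 counts in the KO libraries, 12 and 12 in het and 8 and 4 in wt. This gave 1.95 and 1.19 CPM in KO, 8.55 and 4.19 CPM in het and 3.42 and 2.53 CPM in wt, with both het libraries highest. Notch2 fell in KO against het (log2 fold change -1.90 ± 0.68, edgeR adjusted p = 0.0384), a call lost with DESeq2, library size only, no filter and a fit of KO and het alone, and without any 1 of KO replicates 1 and 2, het replicate 2 and wt replicates 4 and 5 (adjusted p between 0.0570 and 0.243). Notch3 had 9 and 6 counts in KO, 5 and 14 in het and 3 and 2 in wt libraries, which gave 1.17 and 1.02 CPM in KO, 3.56 and 4.89 CPM in het and 1.28 and 1.27 CPM in wt. Its het libraries, like those of Notch2, lay above the other 4. The share of all tested genes with this order was not counted. Both het libraries lay above both wt libraries for 19.2% of tested genes, and both KO libraries below both het libraries for 33%. In a fit with no filter none of the Notch3 comparisons passed (edgeR adjusted p between 0.126 and 0.987).

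Some markers of other cells were also highest in het, as the cardiomyocyte sums given above were. The 6 fibroblast markers summed to 23.7 and 64.3 CPM in KO, 102.6 and 170.0 CPM in het and 40.2 and 83.5 CPM in wt libraries, and no fibroblast marker was at 0 in a whole group. The mural receptor gene Pdgfrb was at 5.71 and 1.87 CPM in KO, 5.70 and 5.93 CPM in het and 0 and 0.633 CPM in wt libraries, so KO and het overlapped. The smooth muscle gene Myh11 was at 0 in KO, in wt and in het replicate 2, and held 2 counts (0.698 CPM) in het replicate 3. All 9 mural markers together summed to 87.0 and 150.5 CPM in KO, 198.7 and 256 CPM in het and 249 and 337 CPM in wt libraries, so this sum was lowest in KO while het and wt overlapped. Most of each sum came from Abcc9 and Kcnj8. Abcc9 was at 107.5 and 59.0 CPM in KO and 241 and 160.7 CPM in wt, and Kcnj8 at 26.9 and 13.4 CPM in KO and 72.8 and 60.7 CPM in wt. Pdgfrb went the other way, so the sum does not speak for the whole list. The 7 macrophage and blood markers summed to 85.7 to 126 CPM in KO, 159 to 213 CPM in het and 90.6 to 199.9 CPM in wt libraries. The part of such cells in the Notch2 and Notch3 values was not tested.

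**Figure D2:**
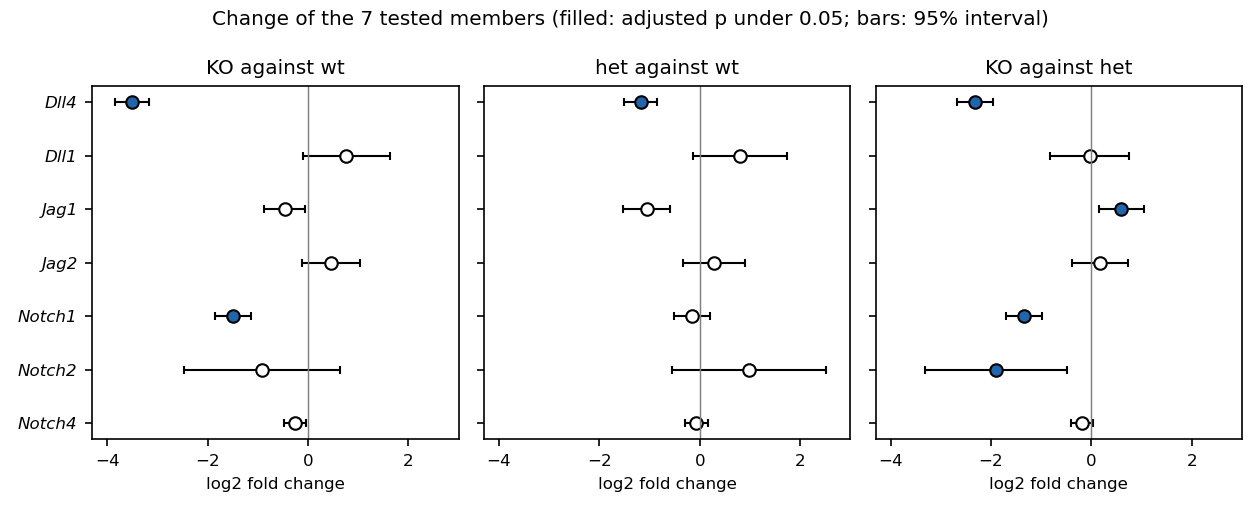
Log2 fold change (x axis) of the 7 tested ligands and receptors in 3 comparisons, with 95% intervals from the edgeR fit; filled points passed at an adjusted p under 0.05. Dll4 lies left of 0 in all 3 panels, Notch1 in both KO panels, and of its 3 panels Jag1 lies furthest left in het against wt.

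Over the family, 2 of the 7 tested genes were called in KO against wt, both lower, against 32% of all tested genes called in that comparison, 17.3% called lower and 14.7% called higher. The KO and wt libraries did not overlap for any of the 7 tested genes, with Dll1 and Jag2 above and the other 5 below, against 67.7% of all tested genes without overlap, 33.2% above and 34.5% below. The share of 2 in 7 is near the background. Without het replicate 2 or het replicate 3 the count was 4, with Jag2 and Notch4 added. In het against wt 1 of 7, Dll4, was called, against 0.173% of all tested genes, 0.0457% called lower and 0.128% called higher, and Dll4 is the targeted gene. Without wt replicate 4 none of the 7 was called, among 2 called genes in all, and 74 genes were called without het replicate 3. The het and wt libraries did not overlap for 4 of the 7 tested genes, with Dll4 and Jag1 below and Dll1 and Notch2 above, against 38% of all tested genes without overlap, 18.8% below and 19.2% above. In KO against het 4 of 7 were called, Jag1 higher and Dll4, Notch1 and Notch2 lower, against 31.2% of all tested genes, 17.2% called lower and 13.9% called higher. The KO and het libraries did not overlap for 5 of the 7, with Jag1 above and Dll4, Notch1, Notch2 and Notch4 below, against 64.5% of all tested genes without overlap, 31.5% above and 33% below. The count of calls was 2 without KO replicate 2, het replicate 2 or wt replicate 5. The median log2 fold change of the 7 genes in KO against wt was -0.46, beside -0.02 over all tested genes. It was -0.07 in het against wt, beside 0.01, and -0.19 in KO against het, beside -0.02. Scaling by library size alone moved the median of all genes in KO against wt to 0.35, so directions in KO are relative to the bulk of genes.

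The makeup of the ligand pool differed between the groups. Summed per transcript length, the 4 ligands came to 33.0 ± 5.19 CPM per kb in KO, 46.2 ± 7.002 in het and 75.0 ± 1.55 in wt. Dll4 made up 13.3% ± 1.12 of this sum in KO, 48.7% ± 5.48 in het and 67.4% ± 1.93 in wt. Jag2 made up 59.3% ± 2.78 in KO, 35.8% ± 9.06 in het and 19.1% ± 0.156 in wt. Shares of 1 sum are tied, so a fall of Dll4 alone raises the share of every other ligand. The Jag2 level itself was 19.6 ± 3.99 CPM per kb in KO and 14.3 ± 0.413 in wt, a change that was not called (edgeR adjusted p = 0.207). Jag1 and Jag2 together held 76.7% and 79.9% in KO libraries, 40.2% and 49.7% in het libraries and 29.4% and 31.5% in wt libraries. They exceeded the Dll4 share in both KO libraries and in het replicate 3, where Dll4 held 44.8%. The ratio of Dll4 to Jag1 per length was 0.911 and 0.554 in KO libraries, 4.88 and 6.04 in het libraries and 6.73 and 5.28 in wt libraries. The het and wt ratios overlapped. With 2 libraries a group an exact two-sided permutation test cannot go below 0.333, so these shares are descriptions.

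The receptor pool summed to 45.8 ± 5.12 CPM per kb in KO, 72.3 ± 1.37 in het and 77.2 ± 7.64 in wt. Notch1 made up 29.8% ± 4.11 of it in KO, 48.4% ± 3.14 in het and 50.05% ± 2.34 in wt, and Notch4 69.6% ± 4.18 in KO, 49.996% ± 3.41 in het and 49.4% ± 2.37 in wt. These shares are tied in the same way. The Notch4 level itself was not higher in KO, at 31.7 ± 1.65 CPM per kb beside 38.1 ± 1.94 in wt. The ratio of Notch1 to Notch4 per length was 0.491 and 0.371 in KO libraries, 1.06 and 0.882 in het libraries and 1.08 and 0.948 in wt libraries. The KO libraries lay below all others.

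**Figure D3:**
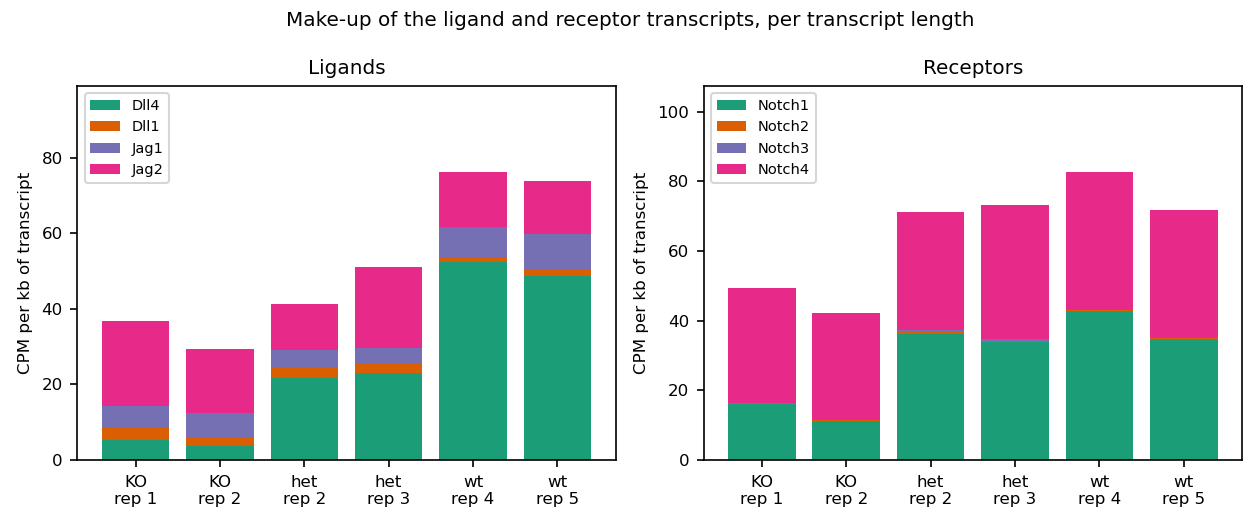
Stacked level of the 4 ligands (left) and the 4 receptors (right) in CPM per kb of transcript (y axis) for each library (x axis). The Dll4 block is smallest in the KO libraries, larger in het and largest in wt, and among receptors the Notch1 block is smallest in the KO libraries.

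Whether the het level lay off halfway between wt and KO on the log scale was tested with a separate contrast. Of the 7 genes 3 were called, against 11.5% of all tested genes, 7.81% called above and 3.68% called below the midpoint. Dll4 lay above the midpoint by 0.57 ± 0.14 and Notch1 by 0.59 ± 0.14, while Jag1 lay below it by a log2 difference of -0.83 ± 0.20 (edgeR adjusted p = 0.00911, 0.0199 and 0.00809). For Dll4 the direction depended on the scale. On the linear scale its het mean was 44.1% of wt, below halfway between KO at 8.73% and wt at 100%. Notch1 in het was 90.3% of wt, above halfway on the linear scale as well, with KO at 35.5%. The Dll4 and Notch1 calls were lost with library size as the only scaling (adjusted p = 0.0703 and 0.0835), where the midpoint value of all genes shifted to -0.17, and each of the 3 calls was lost without het replicate 3 (adjusted p = 0.109, 0.145 and 0.131 for Dll4, Notch1 and Jag1). The Notch1 call was also lost without het replicate 2 (adjusted p = 0.207) and the Dll4 call without wt replicate 5 (adjusted p = 0.0517).

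Transcript length moved with the KO comparison. Notch1 has a longest transcript of 9488 bases, which puts it in the longest of 10 length classes of tested genes, where the median log2 fold change of KO against wt was -0.33 and 32.1% of genes were called lower. Notch4, with 6591 bases, and Jag1, with 5612, lie in the next class, with a median of -0.03, and Dll4, with 3747, lies in a class with a median of 0.16. With a trend on exonic length removed from each library, Notch1 was at -1.27 (edgeR adjusted p = 1.93e-08) in KO against wt and at -1.12 (adjusted p = 1.46e-07) in KO against het.

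**Figure D4:**
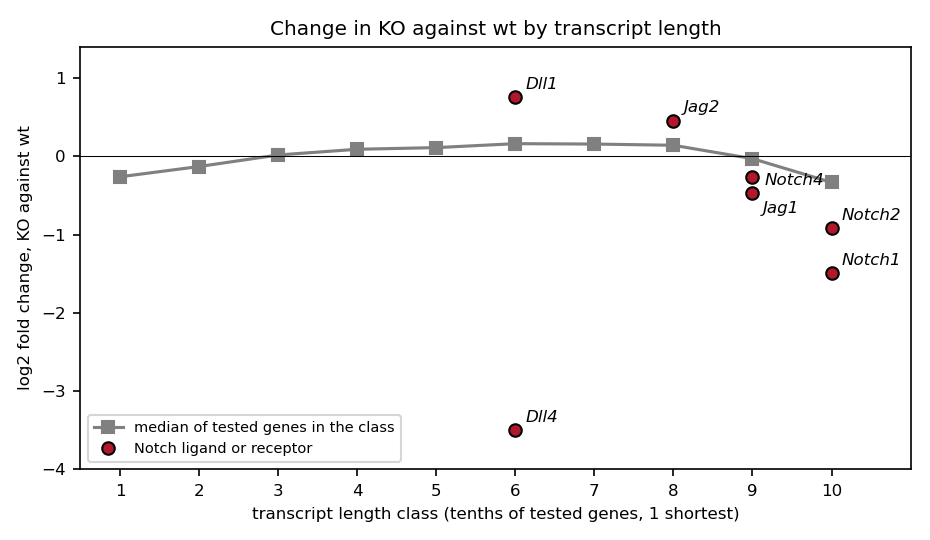
Log2 fold change of KO against wt (y axis) for each tested ligand and receptor (red points) by class of transcript length (x axis, 10 classes of about equal numbers of tested genes); grey squares give the median of all tested genes in the class. Notch1 and Notch2 lie in the longest class, whose median is -0.33, and Dll4 lies in class 6.

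The rest of the pathway was described from a list of 59 Notch pathway genes, of which 53 were tested. In KO against wt 18 fell and 7 rose, against 17.3% of all tested genes called lower and 14.7% called higher, with a median log2 fold change of -0.30 over the list. With library size as the only scaling the split was 12 lower and 13 higher, and without wt replicate 4 the 25 calls became 15, as all calls became 2052 in place of 3509. In het against wt none of the 53 was called by edgeR, DESeq2 or limma-voom, while 5 had an unadjusted p under 0.05 by edgeR, beside 8.15% of all tested genes. In KO against het 18 fell and 7 rose, against 17.2% of all tested genes called lower and 13.9% called higher, so the share that rose is near the background. Of the 53 genes, 9 were in the longest of the 10 length classes, and 4 of these fell in KO against wt with none higher. Over all tested genes of that class 32.1% were called lower and 5.96% higher, so this count is near the background of its class.

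Of 5 tested direct target genes 4 fell in KO against wt and none rose, against 17.3% of all tested genes called lower and 14.7% called higher. The fifth, Hey2, a repressor of the same family as Hey1 that is named here after its value was seen, was at 6.94 ± 0.263 CPM in KO and 12.005 ± 0.0260 CPM in wt and did not pass (edgeR adjusted p = 0.138). Hey1, a transcriptional repressor, was at 23.9 ± 3.32 CPM in KO and 117 ± 4.50 CPM in wt, and Hes1, another repressor, at 49.8 ± 0.821 CPM in KO and 97.6 ± 1.16 CPM in wt. Heyl, at 1.44 ± 1.08 CPM in KO and 7.54 ± 0.974 CPM in wt, and Nrarp, a feedback inhibitor of the Notch complex, at 124.5 ± 13.9 CPM in KO and 168 ± 28.5 CPM in wt, also fell (edgeR adjusted p = 0.00750 and 0.0118). The Heyl call was lost without KO replicate 2, wt replicate 4 or wt replicate 5, and the Nrarp call with DESeq2, library size only and thinning and without KO replicate 1 or wt replicate 4. In het the 4 genes that fell in KO stood at 88.6 ± 3.47 CPM for Hey1, 156.6 ± 38.4 CPM for Hes1, 7.77 ± 2.10 CPM for Heyl and 157.6 ± 0.246 CPM for Nrarp. Hey2 was at 4.94 ± 1.07 CPM in het. None of the 5 passed against wt. Unadjusted edgeR p was under 0.05 for 3 of the 5, with log2 fold changes of 0.66 for Hes1, -0.39 for Hey1 and -1.32 for Hey2, beside 8.15% of all tested genes.

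Of the 8 genes of the nuclear activation complex 4 fell in KO against wt and none rose, against 17.3% of all tested genes called lower and 14.7% called higher. The 4 that fell were the coactivator genes Maml1, at 9.20 ± 1.497 CPM in KO and 36.5 ± 11.04 CPM in wt, and Maml2, at 12.1 ± 2.21 CPM in KO and 27.0 ± 3.03 CPM in wt. The acetyltransferase genes Kat2b, at 5.75 ± 1.42 CPM in KO and 26.5 ± 4.33 CPM in wt, and Crebbp, at 61.2 ± 10.1 CPM in KO and 131 ± 22.7 CPM in wt, were the others (edgeR adjusted p between 7.18e-06 and 0.00155 for the 4 genes). Of these 4, Crebbp lies in the longest length class, Maml1 and Maml2 in the next, and Kat2b in the class after that. In those classes 32.1%, 22.7% and 14.3% of tested genes were called lower in KO against wt. The part of length in this count was not tested. Of 9 corepressor genes 3 fell and 1 rose. Spen, whose product binds Rbpj, was at 19.8 ± 5.65 CPM in KO and 47.2 ± 2.29 CPM in wt and was among those that fell (edgeR adjusted p = 3.43e-04). Cir1 fell as well (-0.94, adjusted p = 0.0157) and the deacetylase gene Hdac2 rose (0.30, adjusted p = 0.0307). Both calls were lost with DESeq2 and without either wt library, the Hdac2 call also without either KO library and with the length trend removed, and the Cir1 call also with library size only, thinning and without KO replicate 1.

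Genes of receptor cleavage went both ways in KO against wt, with 3 of 9 higher and 3 lower. Over all tested genes 14.7% were called higher and 17.3% lower. The sheddase genes Adam17, at 138 ± 7.66 CPM in KO and 69.6 ± 8.89 CPM in wt, and Adam10, at 332 ± 17.0 CPM in KO and 216 ± 1.07 CPM in wt, rose. Ncstn, a gamma-secretase subunit gene, rose to 199.9 ± 3.07 CPM in KO against 141 ± 6.80 CPM in wt, while Psen2, a catalytic subunit gene of the same protease, fell to 13.8 ± 2.29 CPM in KO against 37.2 ± 9.70 CPM in wt. edgeR adjusted p of the 4 genes lay between 2.04e-05 and 0.00167.

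On the ligand side, Epn1, which encodes an epsin used in ligand endocytosis, fell to 14.2 ± 2.02 CPM in KO against 111 ± 11.2 CPM in wt, with a log2 fold change of -2.97 ± 0.17 (edgeR adjusted p = 4.22e-11). Its het level was 105.7 ± 10.5 CPM. Mib1, the ubiquitin ligase that activates Notch ligands, was at 85.0 ± 7.96 CPM in KO and 123 ± 16.9 CPM in wt and fell (edgeR adjusted p = 0.0204), a call lost with library size only and without KO replicate 2 or wt replicate 4. Dnm2, a dynamin gene, rose to 208 ± 5.31 CPM in KO against 91.7 ± 12.1 CPM in wt (edgeR adjusted p = 5.04e-07), and Mib2 did not pass at 14.1 ± 0.158 CPM in KO and 9.99 ± 1.61 CPM in wt. Of the 6 tested genes of this role 2 fell and 1 rose, against 17.3% of all tested genes called lower and 14.7% called higher. Of the 5 glycosyltransferase genes, which modify Notch receptors, none passed in KO against wt. Both KO libraries lay above wt for 2 of them and below for 1, against 33.2% of all tested genes above and 34.5% below. Among the 5, Lfng was at 21.6 ± 7.80 CPM in KO and 23.3 ± 4.57 CPM in wt. Mfng was at 217 ± 24.8 CPM in KO and 177 ± 20.1 CPM in wt.

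Receptor turnover genes were mixed in KO against wt, with 2 of 10 higher and 2 lower. Both shares are near the background of 14.7% of all tested genes called higher and 17.3% called lower. Numb, an inhibitor of Notch, rose to 122 ± 1.89 CPM in KO against 74.9 ± 7.79 CPM in wt, and Cdk8, a kinase that marks the intracellular domain for degradation, fell to 20.5 ± 6.96 CPM in KO against 44.2 ± 7.07 CPM in wt. Both lost their call without wt replicate 4. The ubiquitin ligase gene Itch rose by 0.45 (edgeR adjusted p = 0.0183) and Fbxw7, of the ligase that clears the intracellular domain, fell by 0.64 (adjusted p = 0.0374). These 2 calls were lost with DESeq2 and without KO replicate 2 or either wt library, that of Itch also with thinning, and that of Fbxw7 also with library size only, with no filter and without KO replicate 1. Among ligand-like genes only Dlk1 was tested, at 1.76 ± 0.813 CPM in KO, 17.0 ± 10.2 CPM in het and 5.18 ± 4.30 CPM in wt, where KO against wt did not pass.

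**Figure D5:**
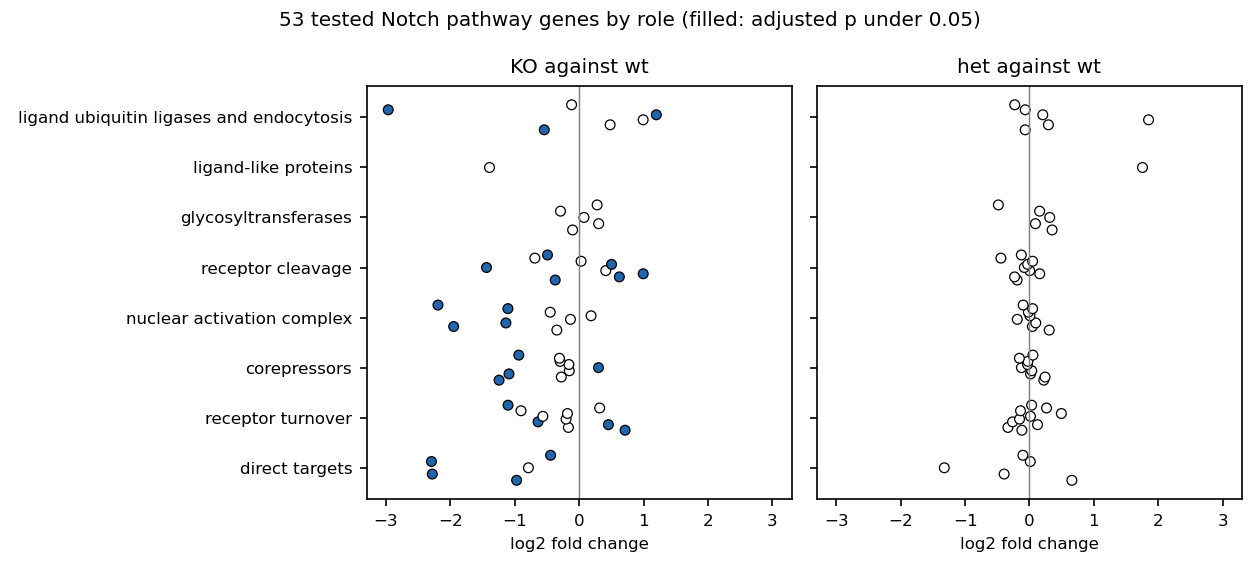
Log2 fold change (x axis) of the 53 tested Notch pathway genes outside the family, 1 point per gene, by role, for KO against wt (left) and het against wt (right); filled points passed at an adjusted p under 0.05. Filled points are present in KO against wt only; 4 of the 5 targets are filled and lie left of 0.

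The genes most like Dll4 and Notch1 over the 6 libraries were found among 9159 candidate genes, by the root mean square difference of log2 CPM after each gene's wt mean was subtracted. For Dll4 these were Art3 (0.18), Eif3j1 (0.26) and Enah (0.40). Art3 was at 1.84 ± 0.0338 CPM in KO, 11.5 ± 0.0859 CPM in het and 24.8 ± 3.71 CPM in wt, and Eif3j1 at 7.45 ± 1.19 CPM in KO, 36.4 ± 3.96 CPM in het and 82.8 ± 5.83 CPM in wt. Eif3j1 starts 2.70 Mb from Dll4 on chromosome 2, so both are on the chromosome that carries the floxed allele. For Notch1 they were Taok1 (0.079), Npc1 (0.089) and Chd4 (0.094), and Chd4 was at 72.1 ± 6.96 CPM in KO, 183 ± 3.61 CPM in het and 202 ± 26.7 CPM in wt. Taok1, with 12409 bases, lies in the longest length class like Notch1, and Npc1, with 5756, and Chd4, with 6697, in the next. The part of length in this likeness was not tested. The likeness is a description over 6 libraries.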

How the data were processed

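RNA was measured in 6 libraries. Per the submitters' processing notes, CASAVA, cutadapt and RSEM were used with GRCm38. The deposited values are RSEM expected counts per gene, which the authors did not normalize. They were rounded to whole numbers here. Symbols, positions and transcript lengths came from GENCODE M21 (97.9% of identifiers matched). edgeR 4.0.16 in R 4.3.3 scaled libraries by TMM, kept 10952 genes by filterByExpr at a minimum count of 10, and fitted all 6 libraries with a robust quasi-likelihood test, with Benjamini-Hochberg adjustment over all tested genes and a call at an adjusted p under 0.05. CPM values were computed here from those library sizes. Intervals cover 95%. Intervals and p-values of 2 libraries per group rest on spread pooled over groups and genes, and depth limits Dll1, Notch2 and Notch3 most. Alternatives used DESeq2 1.42.0, limma 3.58.1 and those in the closing section. The procedure was tested on simulated data. The genes and lists were chosen with earlier results of these data known. All 8 family members are named, up to 4 genes per pathway role by adjusted p in KO against wt, and the 3 genes most like each called member among genes of average log2 CPM of at least 3. No library pair of a group agreed within sampling noise (chi-square per gene 5.50 in KO, 5.25 in het and 2.98 in wt). Some genes of the lists are not reported here by name.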

Additional observations from a re-analysis of the deposited data

How the results depend on the processing

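Dll4 and Notch1 kept their calls in KO against wt and in KO against het under every alternative run, between -3.78 and -3.14 for Dll4 and between -1.78 and -1.13 for Notch1 in KO against wt. Of the family, 2 genes were called in KO against wt, and 4 with library size only, in a fit of the 2 groups alone and with the exonic length trend removed. In het against wt 1 was called, and 2 with no filter and with the length trend removed. In KO against het 4 were called, and 2 with DESeq2. Against the midpoint 3 were called, and 1 with library size only. Of the pathway list, 1 gene was called in het against wt with no filter and with thinning, and 8 in place of 13 against the midpoint with DESeq2. Of all genes, 19 were called in het against wt, 8 with limma-voom, 150 with no filter, 40 with thinning and 30 with the length trend removed. Against the midpoint 1258 were called, 779 with DESeq2 and 2162 with library size only.

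Leaving out 1 library at a time, the family's calls ran from 2 to 4 in KO against wt, 0 to 1 in het against wt, 2 to 4 in KO against het and 0 to 3 against the midpoint. The pathway's calls ran from 15 to 26, from 0 to 1 and, against the midpoint, from 5 to 13, and calls over all genes from 2052 to 3809 in KO against wt, 2 to 74 in het against wt and 757 to 1132 against the midpoint.

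Signs that turned belonged to uncalled values. With library size only, Notch4 turned to 0.10 in KO against wt, to 0.19 in KO against het and to -0.14 against the midpoint, Dll1 to 0.34 in KO against het and Jag2 to -0.14 against the midpoint. A trend on transcript GC content, chosen after seeing the data, turned Notch4 to 0.083 in KO against het and to -0.13 against the midpoint, Dll1 to 0.0075 in KO against het and Jag2 to -0.15 against the midpoint. With no filter Dll1 was 0.021 in KO against het. Leaving out 1 library, Dll1 ran from -0.38 to 0.22 and Jag2 from -0.13 to 0.70 in KO against het, Jag2 from -0.24 to 0.59, Notch1 from -0.29 to 0.0042 and Notch4 from -0.17 to 0.010 in het against wt, and Jag2 from -0.47 to 0.36 and Notch4 from -0.036 to 0.14 against the midpoint. The cause was not tested. Where a group kept 1 library, it was assumed to vary like the others. The planned trend on exonic GC content was not run. No paired analysis was possible because het and KO share only replicate number 2 and the other pairs share none.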
